A study of Mus musculus with 6 samples.

Results

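The B cell identity genes are 8 genes of the 20138 in the authors' deposited table, taken by name: Ms4a1, Cd79a, Cd79b, Cd22, Pou2af1, Blk, Fcrla and Mzb1. They were selected on their log2 folds in this very comparison, so their folds and p-values describe them and test nothing. Kidneys of 6 mice were compared by RNA sequencing at postnatal day 35, with 3 animals per genotype. Pkd2-KO animals carry Pkhd1Cre and floxed Pkd2 (Pkd2 F/F), and Pkd2-miR-214-KO animals carry both of these and a null allele of miR-214. Both groups thus lack Pkd2, which encodes the cation channel polycystin-2, where the Pkhd1 promoter drives Cre, chiefly in kidney tubules. The miR-214 allele is not described as limited to a cell type. Sex, strain and litter are not given in the labels, and a bulk kidney sample cannot tell fewer B cells from less RNA per B cell.

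B cells recognise antigen through a membrane immunoglobulin that signals by way of 2 partner chains, Cd79a and Cd79b. Kinases of the Src family, among them Blk, phosphorylate these chains, and the lectin Cd22 dampens the signal. Ms4a1 encodes CD20, a surface protein of mature B cells, and Fcrla an intracellular protein related to Fc receptors. Pou2af1 is a coactivator that works with octamer-binding factors in B cell nuclei, and Mzb1 is a chaperone of the endoplasmic reticulum that serves antibody assembly and is abundant in plasma cells. A kidney holds few B cells in health, and they can gather around vessels and in infiltrates when it is inflamed.

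Promoters of 4 of the 8 genes were read from RefSeq sequences (GRCm38.p6). These are shown because they let genes with large and smaller folds be compared in their own start regions. Each stretch lies within the 250 bases before the RefSeq start, on the gene's strand, and leaves out bases that GENCODE M21 annotates as exon. Capitals mark letters of 4 motifs searched on both strands, the octamer ATGCAAAT, the core CCCNNGGG of the EBF1 motif, the E2A motif CAGGTG and the PU.1 motif GAGGAA. A looser octamer, ATGCNAAT, which includes the first, was searched as well.
Cd79a, chr7:24897247-24897380, plus strand: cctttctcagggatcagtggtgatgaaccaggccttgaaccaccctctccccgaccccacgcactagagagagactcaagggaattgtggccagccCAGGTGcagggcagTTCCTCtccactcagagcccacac
Pou2af1, chr9:51213440-51213689, plus strand: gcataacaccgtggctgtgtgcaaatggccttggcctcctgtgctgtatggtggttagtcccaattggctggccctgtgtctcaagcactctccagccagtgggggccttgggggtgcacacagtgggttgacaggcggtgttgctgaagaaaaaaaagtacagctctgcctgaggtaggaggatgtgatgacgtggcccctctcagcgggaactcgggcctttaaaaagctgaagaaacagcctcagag
Cd22, chr7:30879029-30879176, minus strand: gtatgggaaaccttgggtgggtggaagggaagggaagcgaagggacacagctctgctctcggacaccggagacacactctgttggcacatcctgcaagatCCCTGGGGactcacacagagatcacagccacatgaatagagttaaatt
Fcrla, chr1:170927584-170927833, minus strand: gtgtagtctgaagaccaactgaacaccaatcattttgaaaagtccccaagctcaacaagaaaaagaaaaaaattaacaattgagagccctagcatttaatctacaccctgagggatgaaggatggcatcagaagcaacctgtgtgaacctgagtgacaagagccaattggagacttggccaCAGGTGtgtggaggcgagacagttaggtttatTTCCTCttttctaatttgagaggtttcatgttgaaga

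The Cd79a and Fcrla stretches each hold 1 E2A match and 1 PU.1 match. In Cd79a these letters begin 154 and 140 bases before the start, and in Fcrla 69 and 37 bases before it. Cd22 holds the EBF1 core from 48 to 41 bases before its start, and an E2A match from 245 to 240, beyond the stretch shown. The Pou2af1 stretch holds none of the 5 forms, and none of the 4 genes has the octamer in its 250 bases. Ms4a1, Cd79b and Blk had no promoter among the sequences used. Mzb1 was left out by choice, so its promoter was not searched. Among 32851 promoters of the same length, 1.6% hold the octamer, 2.86% its looser form, 11.8% the EBF1 core, 17.2% the E2A motif and 23.3% the PU.1 motif. A match of letters is a description and not a binding site.

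Values per library were not analysed here, but the lowest values of the table tell how the authors' fit was built. Its 548 genes of lowest mean lie on 10 levels of mean log2 CPM (reads relative to library size, on a log2 scale), of which 3 have a positive fold, 3 a negative fold and 4 a fold of exactly 0. Such levels arise when a gene has 1 read in 1 of 10 libraries, 4 of them outside both genotypes. The step to the next level was 0.0683 on the log2 scale, where 10 libraries give 0.0671 and 6 libraries give 0.107, for the usual prior count of 2. On this reading the mean library held about 38200000 counted reads, and the mean log2 CPM of a gene also takes in 4 libraries that are not analysed here. The mean is therefore not the level in the 6 kidneys. It sets only an upper limit for each genotype, reached if the other 4 libraries had no reads of the gene.

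All 8 B cell identity genes had positive log2 folds in the authors' deposited table, that is, higher values in Pkd2-miR-214-KO, and 49.8% of all genes did. Their median log2 fold was 1.57, beside 0.00 over all genes. None of the 8 had an adjusted p under 0.05 in the authors' edgeR likelihood ratio test, where 0.104% of all genes were called higher and 0.0199% lower. Without adjustment, 5 of the 8 were higher at a p under 0.05, as were 3.1% of all genes, while 1.71% of all genes were lower. The largest folds, those of Ms4a1, Cd79a and Pou2af1, ran from 3.19 to 4.23 on the log2 scale, and the other 5 genes from 1.29 to 1.61. No gene lay between these ranges, a split seen after the values were known and not tested.

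**Figure D1:**
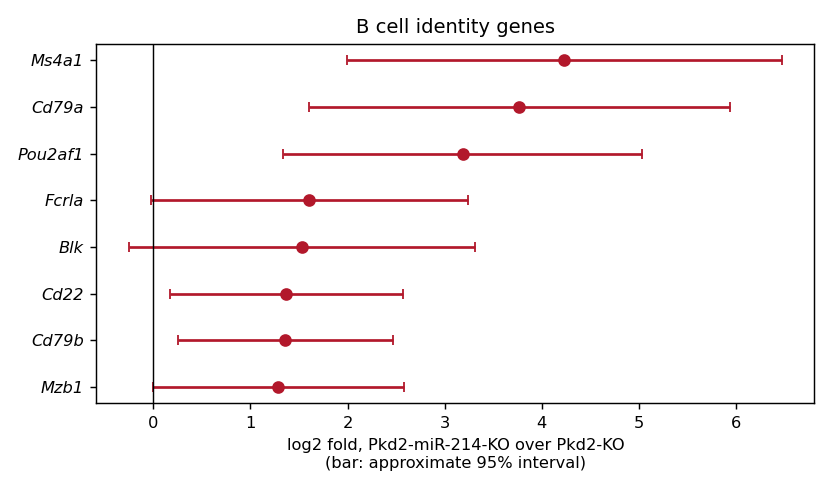
Log2 fold of each B cell identity gene between Pkd2-miR-214-KO and Pkd2-KO (x axis), with bars for the approximate 95% interval. Intervals of 5 genes lie above 0, and those of Fcrla, Blk and Mzb1 reach below it.

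Among the surface chains of the antigen receptor, Cd79a stood at 3.77 ± 1.11 (log2 fold) in the authors' deposited table, with n = 3 animals per genotype. Errors here are an approximate standard error (SE) computed from the fold and its likelihood ratio. This is 13.6-fold, with an approximate 95% interval from 3.03 to 61.2. Cd79b, whose protein pairs with that of Cd79a, had a log2 fold of 1.36 ± 0.56 there, or 2.56-fold with an interval from 1.19 to 5.52. The partner genes thus differed by 2.41 on the log2 scale, their intervals overlap, and the difference cannot be tested without values per library. In Pkd2-KO the mean was at most about 0.677 CPM for Cd79a and 4.40 CPM for Cd79b, and in Pkd2-miR-214-KO at most 9.21 and 11.3 CPM. The adjusted p in the authors' edgeR test was 0.202 for Cd79a and 0.728 for Cd79b. Cd79a lies on chromosome 7 from 24897381 to 24902197 and Cd79b on chromosome 11 from 106311341 to 106314762 (GENCODE M21, the assembly of mm10).

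Ms4a1 had the largest fold of the 8 genes, 4.23 ± 1.14 on the log2 scale in the authors' deposited table, or 18.8-fold with an interval from 3.98 to 88.8. Its adjusted p of 0.113 in the authors' edgeR test was the smallest of the 8, at rank 38 of all genes by p. The gene had about 842 reads over the 10 libraries, so its mean was at most about 14.2 reads per library in Pkd2-KO and 266 in Pkd2-miR-214-KO. Most of its reads among the 2 genotypes were therefore those of the kidneys without miR-214. Ms4a1 lies on chromosome 19 from 11249675 to 11266241 and overlaps an antisense gene, 4930526L06Rik. Reads of the pair can be told apart only by strand, and whether the counting used it is not given in the sources used here.

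Cd22, the inhibitory lectin, stood at 1.37 ± 0.61 (log2 fold) in the authors' deposited table, which is 2.59-fold with an interval from 1.13 to 5.93 (adjusted p = 0.840, authors' edgeR test). It had about 1506 reads over the 10 libraries, the second largest number of the 8 after Cd79b with 1799. Its mean was at most 3.66 CPM in Pkd2-KO and 9.47 CPM in Pkd2-miR-214-KO. The kinase gene Blk had a log2 fold of 1.53 ± 0.91 and an interval from -0.25 to 3.31, which holds 0 (adjusted p = 1, authors' deposited table and edgeR test). Cd22 lies on chromosome 7 from 30865402 to 30880342, where an antisense gene, Gm29439, overlaps it, and Blk on chromosome 14 from 63372836 to 63417037.

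Pou2af1, the coactivator, stood at 3.19 ± 0.94 (log2 fold) in the authors' deposited table, or 9.11-fold with an interval from 2.53 to 32.8 (adjusted p = 0.202, authors' edgeR test). About 644 reads stood behind it, with a mean of at most 21.2 reads per library in Pkd2-KO and 193 in Pkd2-miR-214-KO. Fcrla and Mzb1, whose products stay inside the cell, had log2 folds of 1.61 ± 0.83 and 1.29 ± 0.66 in the authors' deposited table. Their intervals, from -0.03 to 3.24 and from -0.0048 to 2.58, both hold 0, and the adjusted p was 1 for each in the authors' edgeR test. These genes had about 357 and 348 reads over the 10 libraries, and Blk about 337, the fewest of the 8. Pou2af1 lies on chromosome 9 from 51213708 to 51240080 and Fcrla on chromosome 1 from 170917576 to 170927583. Mzb1 lies on chromosome 18 from 35647267 to 35649367. Each overlaps a gene of its own strand: Gm47828 for Pou2af1, the processed pseudogene Gm2962 for Fcrla and the protein-coding SPATA24 for Mzb1. Strand alone cannot tell reads of such a pair apart.

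**Figure D2:**
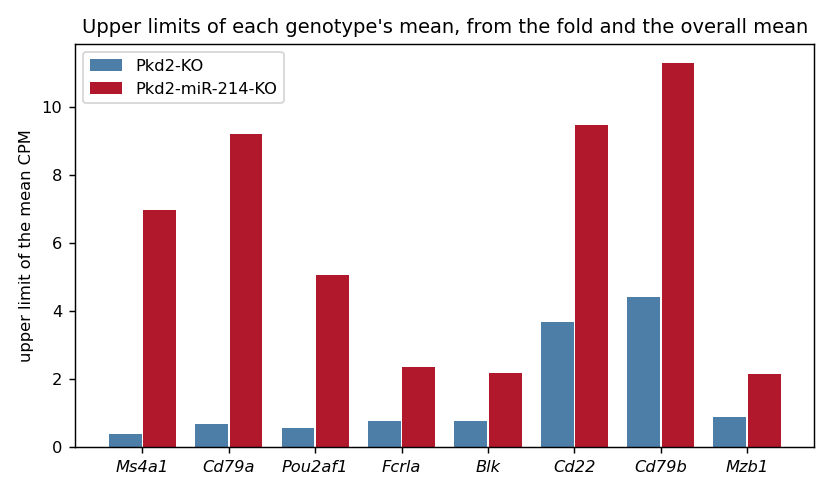
Approximate upper limit of the mean CPM (y axis) of each B cell identity gene in Pkd2-KO (blue) and Pkd2-miR-214-KO (red), as given by the fold and the mean over 10 libraries. The limits in Pkd2-KO run from 0.371 CPM for Ms4a1 to 4.40 CPM for Cd79b; the 2 bars of a gene share 1 assumption and are no measured levels, and genes differ in length.

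The errors of these folds were large for genes of their level. Among genes within 0.5 of its mean log2 CPM, the SE of Cd79a exceeded that of 98.9%, that of Ms4a1 98.5% and that of Pou2af1 97.0%. For Blk, Fcrla, Cd22 and Cd79b the share was between 91.6% and 94.6%, and for Mzb1 it was 81.8%. In an edgeR fit the SE grows with the spread between libraries and with low counts. Genes of like mean have a like count over the 10 libraries, which does not fix the count in either genotype. The approximate SE is also computed from the fold, on which these genes were selected. The source of the large SE was not tested, and values of single animals cannot be read from this table. The share of genes at the same mean with a fold as large ran from 0.813% for Cd79a and 0.867% for Ms4a1 to 6.42% for Mzb1. Because the B cell identity genes were selected on these folds, the shares describe them and test nothing.

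**Figure D3:**
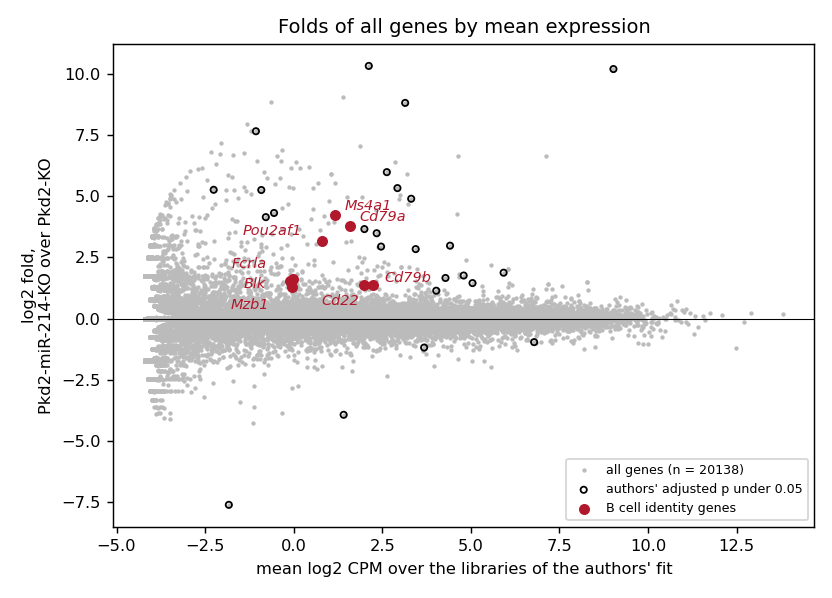
Log2 fold of all 20138 genes (y axis) by mean log2 CPM over the libraries of the authors' fit (x axis). The 8 B cell identity genes (red) lie above 0 at means from -0.10 to 2.25, and none is among the circled genes, the 25 with an adjusted p under 0.05.

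Lists of other B lineage genes, 7 in all with 97 genes in the table, were read by stage and role. They include a list of ligands that act on B cells and need not be made by them. One of the 97 was called higher at an adjusted p under 0.05 in the authors' edgeR test, beside 0.104% of all genes. It was the chemokine gene Cxcl13, from the list of ligands. None was called lower, beside 0.0199% of all genes. The median log2 fold of the 97 was 0.13, beside 0.00 over all genes. Of the 22 surface receptor genes, 18 had positive folds and 4 negative, with a median of 0.97; 0 were called, and unadjusted p-values under 0.05 numbered 8 upward and 1 downward. Faim3, an IgM receptor, had one of the larger folds, 3.61 ± 1.09 on the log2 scale in the authors' deposited table. Tnfrsf13c, which encodes the BAFF receptor, had 3.47 ± 1.23 and the complement receptor gene Cr2 3.05 ± 1.01 in the authors' deposited table. These 3 stood near or within the range of Ms4a1, Cd79a and Pou2af1, with adjusted p-values from 0.213 to 0.424 in the authors' edgeR test. In contrast, the list holds Cd72, an inhibitory coreceptor, with -0.83 ± 0.39, and Fcgr2b, an inhibitory Fc receptor also made by macrophages, with 0.52 ± 0.23 in the authors' deposited table.

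Genes that carry the signal inside the cell lay near 0 as a list. Of 20 kinases, adaptors and phosphatases of antigen receptor signalling, 5 had positive and 15 negative folds, with a median of -0.06. None was called, and 1 had an unadjusted p under 0.05, the B cell scaffold gene Bank1 with 1.60 ± 0.68 in the authors' deposited table. The adaptor gene Blnk, the most read of the list, had 0.25 ± 0.25 and Malt1 0.22 ± 0.22 in the authors' deposited table. Most genes of this list are also used by other leukocytes, and Ptprc, the common leukocyte antigen, had -0.06 ± 0.34 in the authors' deposited table.

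Transcription factors of the lineage also had a median near 0. Of 15 genes, 7 folds were positive and 8 negative, the median was -0.02, 0 were called and 2 had an unadjusted p under 0.05, both upward. Pax5, which fixes B cell identity, had 4.83 ± 1.57 (adjusted p = 0.291, authors' edgeR test) in the authors' deposited table, on about 81.1 reads over the 10 libraries. Spib, a factor of B cells and plasmacytoid dendritic cells, had 1.42 ± 0.70, and Bcl11a 1.29 ± 0.78 in the authors' deposited table. Factors with wider use, such as Bcl6 with -0.38 ± 0.38 and Ets1 with -0.06 ± 0.24, lay near or below 0 in the authors' deposited table. Pou2f2, the octamer-binding partner of Pou2af1, had -0.24 ± 0.49, and the ubiquitous Pou2f1 0.20 ± 0.22 in the authors' deposited table.

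The 15 plasma cell and secretion genes had a median log2 fold of -0.15, with 6 positive, 9 negative and 0 called. Igj, the chain that joins IgM and IgA units, had 2.14 ± 0.66 (adjusted p = 0.223, authors' edgeR test) in the authors' deposited table, on about 1920 reads. Slamf7 had -1.05 ± 0.44, the syndecan gene Sdc1, which epithelium also makes, 0.27 ± 0.24, and Sec11c 0.32 ± 0.28 in the authors' deposited table. Herpud1, a stress gene of the endoplasmic reticulum and the most read of the list, had -0.29 ± 0.29 in the authors' deposited table. A search by name found 0 heavy or light chain genes of immunoglobulins in the authors' deposited table, so they were not analysed here.

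Several precursor and germinal centre genes were close to the floor of counting. Of 8 precursor genes, 6 had positive folds, with a median of 0.97, and 0 were called or had an unadjusted p under 0.05. Rag2, a recombinase gene, stood at 1.72 ± 1.49 (log2 fold) in the authors' deposited table, and its position at the lowest level stands for 1 read in 1 library. Rag1 had about 10.1 reads, Igll1 28.0 and Vpreb3 50.7 over the 10 libraries, too few for a fold to be read. Cd93, the most read of the list and also a gene of endothelium, had -0.10 ± 0.23 in the authors' deposited table. Of 6 germinal centre genes, 4 had positive folds, the median was 0.29, and 0 were called or had an unadjusted p under 0.05. S1pr2, the most read of these, had -0.17 ± 0.28 in the authors' deposited table.

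Ligands that attract or sustain B cells held the 1 called gene of the lineage lists. Cxcl13, the chemokine for the receptor Cxcr5, rose by 3.49 ± 0.66 on the log2 scale (adjusted p = 3.51e-04, authors' edgeR test) in the authors' deposited table. Cxcr5 itself, named here after its value was seen, had 3.45 ± 1.25 (adjusted p = 0.475) in the authors' deposited table. Ccl21a, a chemokine of lymphoid vessels, had 2.12 ± 0.88, Lta 1.09 ± 0.68 and Ccl20 -0.86 ± 0.51 in the authors' deposited table. Cxcl12, abundant in stroma, had 0.19 ± 0.26 in the authors' deposited table. Of the 12 genes 9 had positive folds, the median was 0.23, and 2 had an unadjusted p under 0.05.

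**Figure D4:**
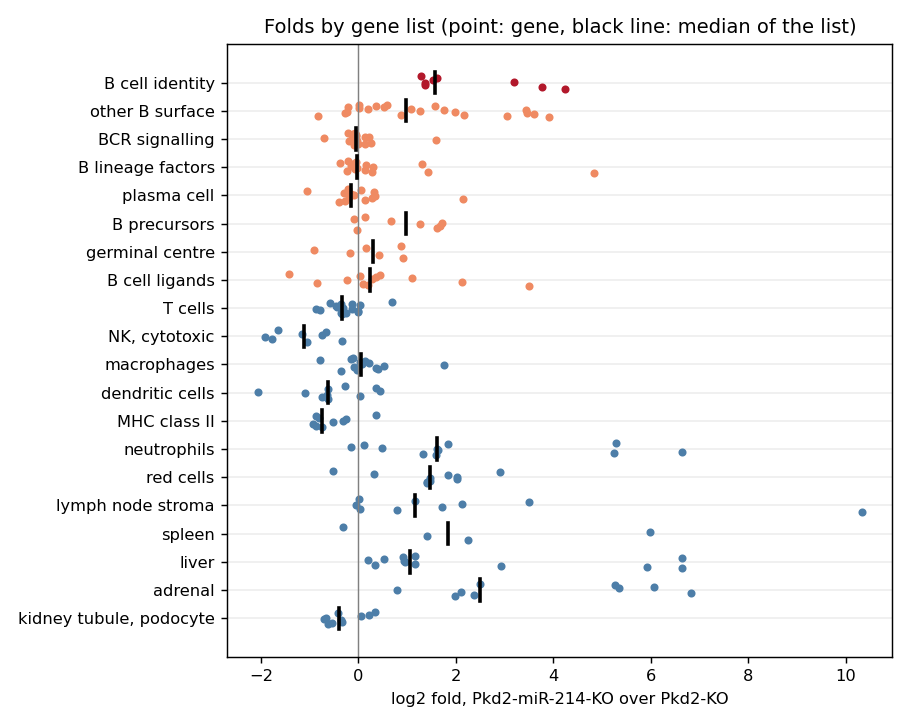
Log2 folds (x axis) of single genes (points) by gene list, with the median of each list as a black line: B cell identity genes in red, other B lineage lists in orange, and lists of other cells and tissues in blue. The B cell identity genes lie to the right of 0, with a median of 1.57, and those of signalling, lineage factors and plasma cells have medians between -0.15 and -0.02.

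Relatives of the B cell identity genes in their own families gave a contrast within gene structure; the families were chosen after values had been seen. Of the other 12 Ms4a genes 0 were called, with a median log2 fold of 0.27. At an unadjusted p under 0.05, 3 of the 12 were higher, as were 3.1% of all genes. Those with many reads, such as Ms4a6c with 0.26 ± 0.24 and Ms4a7 with 0.15 ± 0.28, both of myeloid cells, lay below Ms4a1 in the authors' deposited table. Ms4a6d, also with many reads and among the 3, had 0.73 ± 0.25 in the authors' deposited table. Ms4a4b, a T cell member, had -0.39 ± 0.70 in the authors' deposited table. Ms4a3, of myeloid precursors, had the larger fold of 5.07 ± 1.88 on about 14.6 reads, and Ms4a8a, beside Ms4a1 in the same gene cluster, 2.09 ± 0.60 in the authors' deposited table. Among Src family kinases, Blk had 1.53 ± 0.91, and the 6 others read here ran from -0.19 for Fyn to 0.29 for Yes1 in the authors' deposited table. Lyn, the Src kinase that B cells share with myeloid cells, had -0.09 ± 0.21 in the authors' deposited table. Of the Fc receptor-like genes, Fcrl1 had 1.27 ± 0.70, Fcrlb, the neighbour of Fcrla, 0.19 ± 0.59, and Fcrls, of microglia and other macrophages, -0.41 ± 0.41 in the authors' deposited table. Among the sialic acid-binding lectins, Siglecg, a B cell partner of Cd22, had 1.98 ± 0.88 and the macrophage gene Siglec1 -0.10 ± 0.38 in the authors' deposited table. Differences between relatives were not tested.

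**Figure D5:**
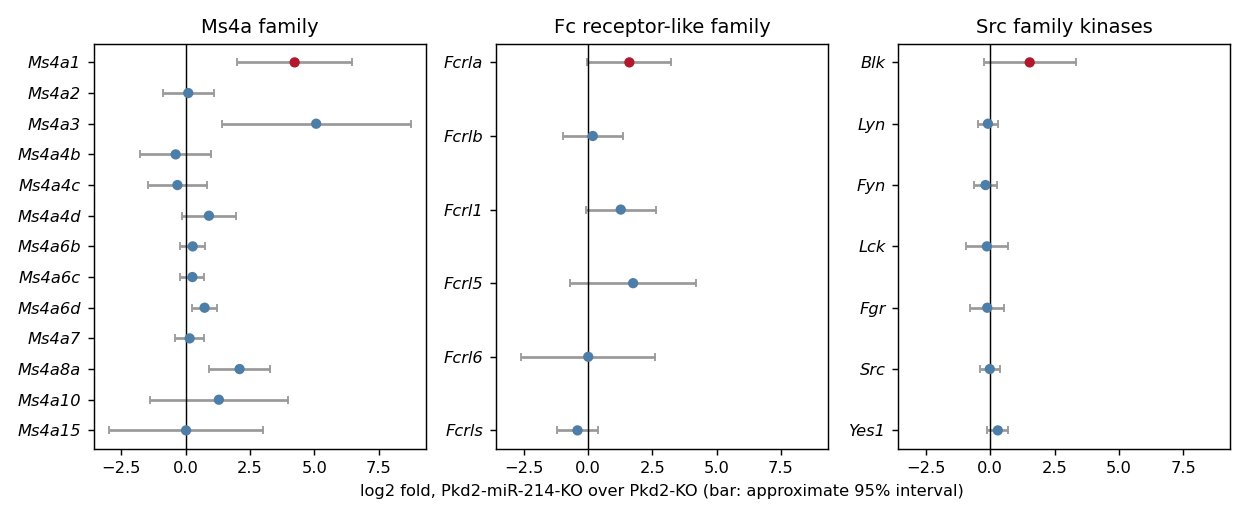
Log2 folds (x axis) with approximate 95% intervals for the Ms4a family, the Fc receptor-like family and the Src family kinases, with B cell identity genes in red and their relatives in blue. Blk stands at 1.53 while the other Src kinases shown lie between -0.19 and 0.29; the Ms4a family has a larger fold than Ms4a1 in Ms4a3.

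Markers of other cells and tissues were read beside the B cell identity genes. The labelled tissue was clear in its defining genes, with mean log2 CPM of 11.4 for Umod, 11.3 for Slc34a1 and 8.39 for Aqp2, over libraries that include 4 not analysed here. Of 16 T cell genes 14 had negative folds, with a median of -0.33, and of 8 NK and cytotoxic genes all were negative, with a median of -1.11. Of either list 0 were called, and 2 NK and 0 T cell genes were lower at an unadjusted p under 0.05. The 9 genes of MHC class II presentation, which B cells express along with dendritic cells and macrophages, had a median of -0.75 with 8 negative and 0 called. Of these 9, 5 were lower at an unadjusted p under 0.05, as were 1.71% of all genes. H2-Ob, a class II gene largely of B cells and not in this list, had 1.56 ± 0.81 in the authors' deposited table (adjusted p = 1, authors' edgeR test). Its interval, from -0.03 to 3.15, holds 0. H2-Oa, the 1 gene of the list with a positive fold, had 0.35 ± 0.66 in the authors' deposited table. Neutrophil genes had a median of 1.61 with 10 of 11 positive and 0 called, and red cell genes 1.47 with 9 of 10 positive and 0 called. Of 10 dendritic cell genes 7 had negative folds, with a median of -0.62, 0 called and 2 lower at an unadjusted p under 0.05, Cd209a with -2.07 ± 0.67 and Itgax with -0.75 ± 0.37 in the authors' deposited table. Plasmacytoid dendritic cells also make Spib and Mzb1. Of their genes in the list, Siglech had 0.43 ± 0.63, Ccr9 0.37 ± 0.72, Bst2 -0.63 ± 0.33 and Irf7 -0.27 ± 0.30 in the authors' deposited table.

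Genes of lymph node stroma had a median of 1.16 with 8 of 9 positive and 2 called, Cxcl13 and Glycam1, a product of high endothelial vessels with 10.33 ± 2.50 in the authors' deposited table. Of 6 genes listed for spleen and bone marrow, 2 had no values, Nkx2-5 and Tlx1. The other 4 mark neither the spleen alone nor its stroma alone. Of these, 3 were positive, and Vcam1 had -0.32 ± 0.28 in the authors' deposited table. The scavenger receptor gene Marco was the 1 called, with 5.99 ± 1.01 in the authors' deposited table. The 14 macrophage and monocyte genes, among which Marco was not listed, had a median of 0.05, with 8 positive and 6 negative. Their 1 called gene was Cd163, with 1.76 ± 0.35 in the authors' deposited table. Liver genes were positive in 12 of 12 with a median of 1.05 and 0 called, among them Alb with 6.64 ± 2.05 in the authors' deposited table. Adrenal genes were positive in 9 of 9 with a median of 2.50, and 1 was called, Dbh, with 5.27 ± 1.31 in the authors' deposited table. At an unadjusted p under 0.05, 7 of the liver and 4 of the adrenal genes were higher. So were 3 genes each of the lymph node and spleen lists, and 2 of the macrophage list. Summed levels of these lists in each animal were not analysed here, and their part in the folds of the B cell identity genes was not tested. Xist, made in female cells, rose by 10.21 ± 2.36 (adjusted p = 0.0168, authors' edgeR test), and the Y-linked genes Ddx3y, Eif2s3y, Kdm5d and Uty had folds from -0.66 to -0.14 with SE of 1.40 to 1.66 in the authors' deposited table. The part of sex was not tested either. Mir214, the deleted gene, had -7.62 ± 1.08 (adjusted p = 1.34e-08, authors' edgeR test) in the authors' deposited table, which fixed the sign of the folds and so is no separate check of the labels. Pkd2, deleted in both genotypes, had -0.11 ± 0.23 in the authors' deposited table.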

How the data were processed

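RNA of whole frozen kidneys was extracted and made into libraries with a stranded kit for total RNA, per the labels' protocols, while the series text names polyadenylated RNA. TopHat2 2.0.12, edgeR and the build mm10 appear in the submitters' processing notes. The 1 table used holds, per the file headers, a log2 fold, a mean log2 CPM, a likelihood ratio (a score on 1 degree of freedom), an unadjusted and an adjusted p-value for 20138 genes, all made by the authors. How reads were counted, filtered and normalized, and whether by strand, is not given in the sources used here. The planned fallback for a table without counts per library was followed, and no new test was made.

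The sign was read from Mir214. The approximate SE divides the log2 fold by the root of the likelihood ratio, and intervals span 1.96 SE each way; both are poor at low counts, where the prior count also shapes a fold. The read totals assume a prior count of 2 and 10 libraries of like size, and were tested on simulated data, as were the p adjustments. Upper limits divide all reads of a gene between the 3 libraries of each genotype in the ratio of the fold. Separate animals are behind each library, per the series text. On the reading of 10 libraries, the spread behind the p-values and the SE can also take in the 4 libraries outside both genotypes. It is then not the spread of the 6 kidneys alone. The members, lists and rules were chosen with earlier results of these data known; named genes were all members, up to 4 genes of smallest p and the most read gene of each B lineage list, and leading genes of other lists. A few genes within this rule are left out. Genes most alike over samples could not be sought. Alternatives were other gene filters for the adjustment, other thresholds and adjustments, and other summaries. Scripts ran under Python 3.11.15 with numpy 2.4.6, pandas 2.3.3, matplotlib 3.10.9 and scipy 1.17.1.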

Additional observations from a re-analysis of the deposited data

How the results depend on the processing

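The count of B cell identity genes called, 0 in the authors' edgeR test (5 at an unadjusted p under 0.05), was also 0 when p-values were adjusted over genes with a mean log2 CPM of at least -1, 0 or 1, at a threshold of 0.10, with Holm's adjustment and with an estimated share of true nulls. The smallest adjusted p, that of Ms4a1, ran from 0.106 to 0.119 over the 3 filters. The other B lineage genes gave 1 call, Cxcl13, under each of these settings. The median log2 fold of the 8 genes was 3.19 with a minimum mean log2 CPM of 0, because that filter removed 3 genes of smaller fold, and 1.37 without Ms4a1, Cd79a and Pou2af1, a choice made after seeing the data. Weighting by the inverse squared SE gave 1.85. The median of the other B lineage genes stayed between 0.0025 and 0.31 in all settings run. Leaving out an animal was not run, since values per library were not analysed here. No paired analysis was possible because the labels give no shared replicate numbers and the table has no values per library.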

Other observations

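Genes beside the B cell identity genes on their chromosomes were read as a description of position. The nearest 2 tested genes on each side gave 32 neighbours, with a median log2 fold of 0.14, 18 positive and 0 with an adjusted p under 0.05 in the authors' edgeR test. Beside Cd79a, Rps19 had 0.22 ± 0.38 and Arhgef1, 0.715 kb away, -0.07 ± 0.21 in the authors' deposited table. Beside Fcrla, Fcrlb had 0.19 ± 0.59 and Dusp12 -0.17 ± 0.26 in the authors' deposited table. The largest neighbour folds belong to genes near the floor of counting, such as Gh beside Cd79b with 3.31 ± 1.66 in the authors' deposited table, where its mean log2 CPM was -3.94. Ms4a8a beside Ms4a1 was not near that floor, with 2.09 ± 0.60 on about 268 reads over the 10 libraries. Its unadjusted p was 4.97e-04 and its adjusted p 0.193 in the authors' edgeR test.

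The authors' deposited table gives 414 genes a log2 fold of exactly 0, which on the reading of 10 libraries would mean no reads in the 6 kidneys. None of the B cell identity genes is among them. Pvalb and Bc1 are, with mean log2 CPM of 2.89 and 5.09. They are the only 2 such genes among 14520 with a mean log2 CPM of at least 0. Whether their reads all came from the 4 libraries outside both genotypes, or the fit failed for them, was not tested. What share of the reads of B cell genes those 4 libraries held is not analysed here.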
